A study of Arabidopsis thaliana with 80 samples.

Results

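The set described here is the Calvin cycle and photorespiration genes of Arabidopsis thaliana, taken as a list of 37 named loci and followed through every accession, collection and time of day of an outdoor RNA sequencing study of rosettes. It holds 37 of the 33602 genes in the table, 23 of the Calvin cycle and 14 of photorespiration. Its members are chosen by what they encode, by a rule that uses no measured value, although earlier results of these data were known when the list was made. All 37 passed the filter on low values, which asked for 3 or more libraries at 1 or above and which 20871 genes passed.

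In the Calvin cycle the chloroplast enzyme Rubisco joins CO2 to ribulose bisphosphate, a pair of reduction steps turns the product into triose phosphate, and a chain of aldolase, phosphatase, transketolase and kinase steps rebuilds the acceptor. Rubisco also takes up oxygen, and photorespiration salvages the phosphoglycolate that this makes, passing through chloroplast, peroxisome and mitochondrion and releasing CO2 and ammonia on the way. In leaves these enzymes are encoded by some of the most abundant nuclear transcripts, and many of the steps have more than one gene copy.

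Of the Calvin cycle genes, 5 serve Rubisco: RBCS1A, RBCS1B, RBCS2B and RBCS3B for its small subunit and RCA for its activase. The 5 reduction genes are PGK1 and AT1G56190 for phosphoglycerate kinase and GAPA, GAPA-2 and GAPB for glyceraldehyde phosphate dehydrogenase. The 10 regeneration genes are TIM (triose phosphate isomerase), FBA1 and FBA2 (aldolase), HCEF1 and SBPASE (bisphosphatases), TKL1 and TKL2 (transketolase), RPE (ribulose phosphate epimerase), EMB3119 (ribose phosphate isomerase) and PRK (phosphoribulokinase). CP12-1, CP12-2 and CP12-3 encode small regulatory proteins. Photorespiration is entered through PGLP1 in the chloroplast, passes GOX1, GOX2, GGT1, AOAT2 and AGT in the peroxisome, then 6 mitochondrial genes, namely GLDP1, GLDP2, AT1G11860, GDCH and AT1G32470 of glycine decarboxylase and SHM1, and returns through HPR in the peroxisome and the glycerate kinase AT1G80380 in the chloroplast.

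The plants were Bon, Moj and Vel, natural accessions of southern Spain, and Col-0, the laboratory accession whose genome is the reference. No transgene or treatment is named in the labels, and all groups shared 1 common garden. Libraries were made from polyA RNA of rosette leaves, each from a pool of 5 plants, at up to 4 collections (ex1 to ex4) and at 2 times of day, an afternoon harvest labelled evening and a morning harvest. Roots were discarded, as were flower stalks at the reproductive stage, and the labels do not say which stage each collection was. Of 80 libraries, Moj ex3 morning replicate 1 was left out throughout because its profile was closest to a library of another accession, which left 79 libraries in 23 groups of 3 and 5 groups of 2. Bon and Moj have no libraries in ex4.

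Values are the deposited log2 values of a length-normalized expression estimate, with no counts, so the depth behind a value is unknown. A difference is a log2 difference between equally weighted group means. Its test is limma's two-sided moderated test over 20871 genes with Benjamini-Hochberg adjustment, passed at adjusted p under 0.05. P-values measure the spread between pools of plants from 1 garden. The labels call the collections extractions, and collection, harvest day and RNA extraction cannot be told apart. In these bulk samples fewer cells of a type and less RNA per cell cannot be told apart either. Reads of all accessions were set against the Col-0 genome, and the kit used keeps no strand information, so reads of 10 of the genes that overlap another annotated gene (RCA, PGK1, GAPA, TIM, HCEF1, EMB3119, PRK, GOX1, GLDP1 and AT1G32470) cannot be told from those of that neighbour.

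The 37 genes sat high in the rosette transcriptome. Between 15 and 20 of them were among the 100 highest values of each ex1 library, 3 to 17 in ex2, 9 to 18 in ex3 and 9 to 17 in ex4. RBCS1A, a gene of the Rubisco small subunit, was the highest gene of the whole table in 67 of 79 libraries. The value at each rank is the same in every library, so a change in RBCS1A shows here only once it loses rank. Over all groups RBCS1A averaged 13.1, RCA, the activase that frees Rubisco of bound sugar phosphates, 11.1 and the aldolase FBA2 10.1. RCA ranked from 2 to 32 and was among the 10 highest genes in 49 libraries. Its values therefore also move in steps set by rank, such as 12.67 at rank 2, 12.07 at rank 3 and 11.79 at rank 4. At the low end TKL2, the minor transketolase, averaged 3.35 and CP12-3, one of the small proteins that hold phosphoribulokinase and glyceraldehyde phosphate dehydrogenase in an inactive complex, 2.34.

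The first question is how the afternoon harvest differed from the morning one, and in this gene set the answer turned with the collection. In ex2 most of the genes were higher in the evening libraries, from Rubisco small subunits to the 5 glycine decarboxylase genes. In ex3 and ex1 more of them were lower in the evening than higher, led in ex3 by RCA, GAPA and GAPA-2. Averaged over ex1 to ex3, 13 genes were higher and 9 lower in the evening, against 34.9% and 35.6% of all genes tested, and the median difference was 0.081 over the 37 and -0.0070 over all genes. Of the passing genes, GLDP1 and RCA alone kept 1 sign in all 12 pairs of group means: GLDP1, the P-protein that decarboxylates glycine in mitochondria, differed by 0.75 ± 0.070 (SE, adjusted p = 3.07e-14) and RCA by -0.68 ± 0.065 (SE, adjusted p = 6.65e-14).

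In ex2, 26 of the 37 genes were higher and 4 lower in the evening, where 33.7% and 33.1% of all genes were, with a median difference of 0.47 against 0.0021 over all genes. GLDP1 ran from 9.08 to 10.28 with a median of 9.55 in the 12 evening libraries, against 7.08 to 8.91 with a median of 7.98 in the 12 morning libraries. Every evening library was above every morning library, a difference of 1.51 ± 0.12 (SE, adjusted p = 2.55e-17). AOAT2, the lesser of a pair of peroxisomal glutamate:glyoxylate aminotransferases, ran from 5.19 to 5.82 with a median of 5.59 in the evening, against 3.71 to 4.89 with a median of 4.09 in the morning, again with no overlap, and differed by 1.36 ± 0.084 (SE, adjusted p = 4.64e-21). The small subunit gene RBCS2B ran from 8.91 to 10.65 with a median of 9.46 in the evening and from 6.90 to 9.52 with a median of 8.20 in the morning. These groups overlapped, and the difference was 1.51 ± 0.19 (SE, adjusted p = 4.04e-10).

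All 6 mitochondrial genes were higher in the ex2 evening, by 0.42 (GLDP2) to 1.51 (GLDP1). In GLDP2 this held in 3 of 4 accessions, and in Bon its group mean was lower in the evening, at -0.68. Beside GLDP1 these included GDCH, an H-protein of the same complex, at 0.94 and SHM1, the serine hydroxymethyltransferase that turns glycine into serine, at 0.56. HPR, the peroxisomal hydroxypyruvate reductase, ran from 7.46 to 8.46 with a median of 7.94 in the evening, against 5.81 to 7.86 with a median of 7.11 in the morning, and differed by 0.98 ± 0.090 (SE, adjusted p = 2.11e-14), although the highest morning libraries reached into the evening range. In the Calvin cycle 3 of 5 Rubisco and activase genes, 4 of 5 reduction genes and 7 of 10 regeneration genes were higher. The rise of RBCS1B, at 0.37 ± 0.17 (SE, adjusted p = 0.0457), missed the threshold in 13 of 79 fits that left out 1 library each, at an adjusted p of up to 0.144 without Moj ex2 morning replicate 1. It was largest in Bon, with group means of 11.272 in the evening and 10.124 in the morning. They were 9.211 and 8.992 in Moj, 9.503 and 9.367 in Vel, and 9.143 and 9.153 in Col-0. The main transketolase TKL1 ran from 8.47 to 9.32 with a median of 9.02 in the evening and from 7.48 to 8.39 with a median of 7.90 in the morning with no overlap. Its difference was 1.07 ± 0.071 (SE, adjusted p = 1.15e-19).

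The 4 genes lower in the ex2 evening were CP12-3, RCA, AGT and GGT1. CP12-3 ran from 1.1 to 2.24 with a median of 1.81 in the evening, against 2.57 to 4.61 with a median of 3.62 in the morning, so no library of the evening reached the morning range. The difference of -1.83 ± 0.11 (SE, adjusted p = 1.28e-21) was the largest of the set in either direction. It was smaller in Col-0, where the group means were 1.998 in the evening and 2.666 in the morning. They were 1.610 and 3.892 in Bon, 2.125 and 4.253 in Moj, and 1.207 and 3.456 in Vel. RCA differed by -0.47 ± 0.11 (SE, adjusted p = 0.000168), and its groups overlapped, from 10.04 to 10.97 with a median of 10.44 in the evening and from 10.24 to 11.59 with a median of 10.89 in the morning. AGT, the peroxisomal serine:glyoxylate aminotransferase, differed by -0.26 and GGT1, the major glutamate:glyoxylate aminotransferase, by -0.31. PRK, the phosphoribulokinase that makes the CO2 acceptor, was at -0.029 (adjusted p = 0.777), the phosphatase SBPASE at 0.030 (adjusted p = 0.758) and GAPA, a subunit of the chloroplast glyceraldehyde phosphate dehydrogenase, at 0.052 (adjusted p = 0.608), none of which passed. PRK group means were lower in the evening in Bon (8.74 against 9.13) and Col-0 (8.85 against 9.18). They were higher in the evening in Moj (8.76 against 8.49) and Vel (9.03 against 8.69). Group means of SBPASE were split between the accessions in the same way.

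**Figure D1:**
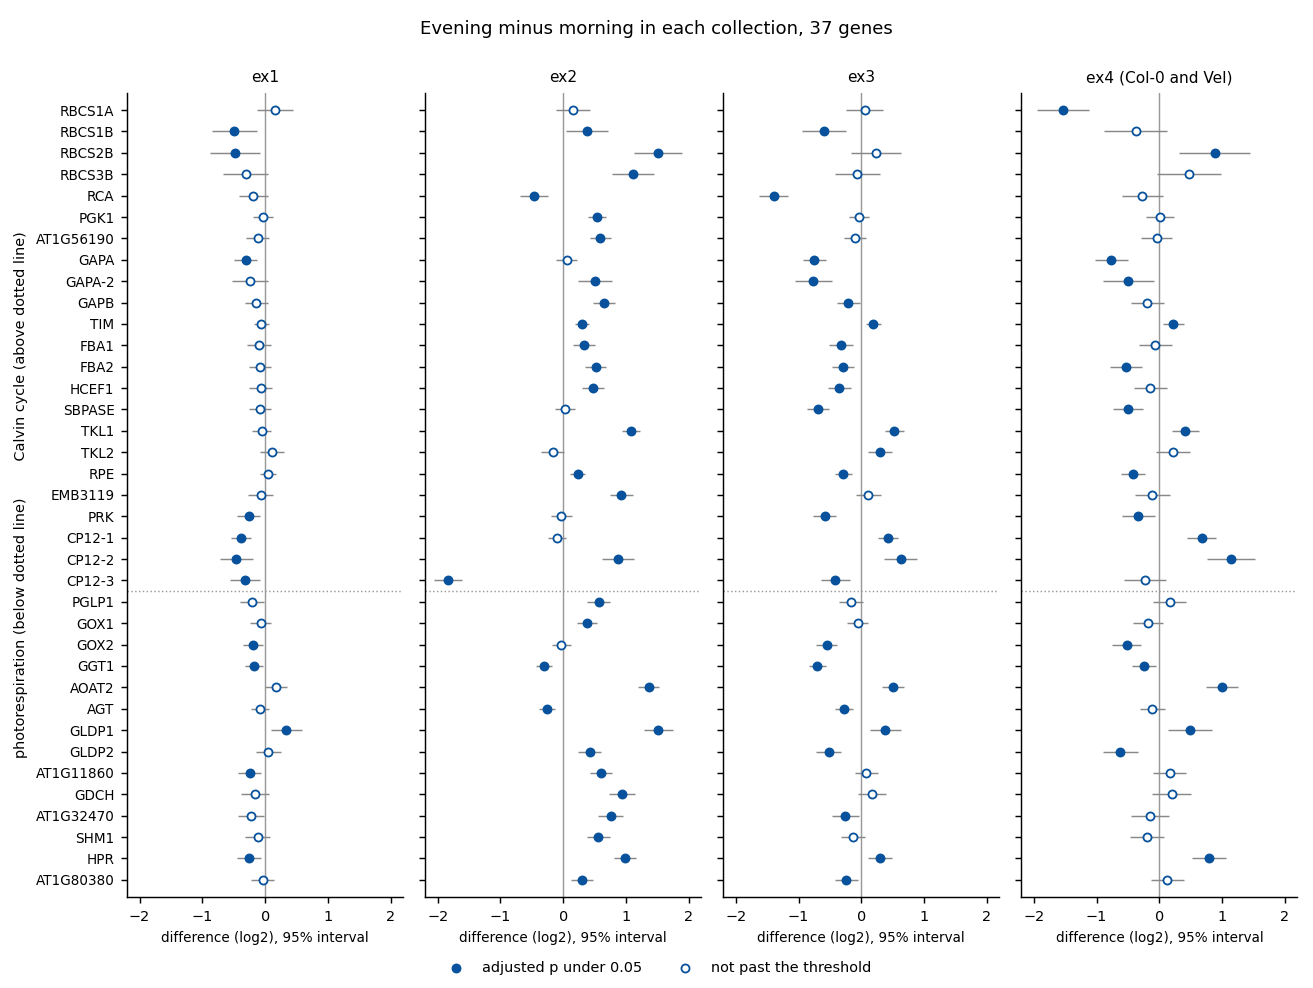
Evening minus morning differences (log2) of the 37 genes in collections ex1 to ex4, with 95% confidence intervals, filled where the adjusted p passed the threshold, and with Calvin cycle genes above the dotted line and photorespiration genes below it. In ex2, 26 filled points lie right of zero and 4 left of it, while in ex3 8 lie right and 18 left.

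In ex3, 8 genes were higher and 18 lower in the evening, against 29.9% and 28.7% of all genes, with a median difference of -0.16 over the set and -0.0022 over all genes. RCA ran from 10.42 to 10.97 with a median of 10.73 in the 12 evening libraries, against 11.59 to 12.67 with a median of 12.07 in the 10 morning libraries, 2 of them Moj because 1 was left out. All evening libraries lay below all morning libraries, and the difference was -1.39 ± 0.12 (SE, adjusted p = 8.67e-16). GGT1 and PRK did not overlap either. GGT1 ran from 8.69 to 9.17 with a median of 8.97 in the evening, against 9.23 to 9.91 with a median of 9.66 in the morning, with a difference of -0.70 ± 0.069 (SE, adjusted p = 4.28e-13). PRK ran from 8.47 to 9.27 with a median of 9.01 in the evening, against 9.31 to 10.02 with a median of 9.55 in the morning, with a difference of -0.58 ± 0.091 (SE, adjusted p = 1.94e-07).

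GAPA and GAPA-2, copies of the same dehydrogenase subunit, differed in ex3 by -0.75 ± 0.092 and -0.76 ± 0.14, while GAPB, the regulatory subunit, differed by -0.21 (adjusted p = 0.0437, 0.0601 without the filter on low values, and missed in 15 of 79 fits that left out 1 library each). SBPASE differed by -0.69 ± 0.086 (SE, adjusted p = 7.16e-10). Of the rises, CP12-2 was at 0.63 ± 0.13 (SE, adjusted p = 6.25e-05), TKL1 at 0.53 ± 0.076 (SE, adjusted p = 2.57e-08) and AOAT2 at 0.51 ± 0.089 (SE, adjusted p = 2.49e-06). GLDP1 and HPR were higher in the evening as well, by 0.38 and 0.31. SHM1 was at -0.13 (adjusted p = 0.238), GOX1, a glycolate oxidase, at -0.059 (adjusted p = 0.556) and PGLP1, the phosphoglycolate phosphatase that opens photorespiration, at -0.16 (adjusted p = 0.139), none past the threshold.

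In ex1 fewer genes passed. There, 1 gene was higher and 11 lower in the evening, against 22.1% and 25.7% of all genes, with a median difference of -0.12 over the set and -0.032 over all genes. The rise was GLDP1, from 9.14 to 9.95 with a median of 9.37 in 10 evening libraries and from 8.66 to 9.73 with a median of 9.05 in 12 morning libraries, which overlapped and differed by 0.34 ± 0.12 (SE, adjusted p = 0.0192). It missed the threshold without Col-0 evening replicate 1 or without Col-0 morning replicate 1, which left 0 higher genes. Among the falls were RBCS1B at -0.49 ± 0.18 (SE, adjusted p = 0.0195), RBCS2B at -0.48 ± 0.20 (SE, adjusted p = 0.0428), CP12-2 at -0.46 ± 0.13 (SE, adjusted p = 0.00356) and CP12-1 at -0.39 ± 0.080 (SE, adjusted p = 4.59e-05). RBCS1B had an adjusted p of 0.216 without Moj evening replicate 2 (difference -0.28), 0.0874 without Col-0 evening replicate 3 and 0.0589 when only the groups compared were fitted. RBCS2B missed the threshold in 14 of 79 fits that left out 1 library each, with 0.118 without Moj evening replicate 2, and stood at 0.0604 without the filter. RCA was at -0.19 (adjusted p = 0.166).

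In ex4, with Col-0 and Vel only, 8 genes were higher and 10 lower in the evening, against 25% and 23.9% of all genes, with a median difference of -0.11 over the set and 0.00 over all genes. CP12-2 ran from 8.18 to 8.56 with a median of 8.27 in 5 evening libraries, against 6.26 to 8.36 with a median of 7.04 in 6 morning libraries, and differed by 1.14 ± 0.19 (SE, adjusted p = 1.09e-06). AOAT2 ran from 5.64 to 6.24 with a median of 5.95 in the evening, against 4.63 to 5.53 with a median of 4.82 in the morning, with no overlap and a difference of 0.99 ± 0.13 (SE, adjusted p = 2.22e-09). HPR differed by 0.79 ± 0.13 (SE, adjusted p = 1.83e-06) and GAPA by -0.76 ± 0.13 (SE, adjusted p = 1.9e-06).

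RBCS1A lost rank in the ex4 evening libraries. It stood at 10.97 and 10.89 in the evening libraries of Col-0 and at 13.3, 11.79 and 12.07 in those of Vel, against 12.67, 13.3 and 13.3 in the morning libraries of Col-0 and 13.3 in each of 3 morning libraries of Vel. In Vel 1 evening library equalled the highest mornings, and the other 4 evening libraries lay below all 6 mornings. The difference was -1.54 ± 0.20 (SE, adjusted p = 7.74e-09), and the adjusted p was 0.055 without the filter on low values. This SE rests on a spread shared by all groups, and in most of them RBCS1A had an SD of 0.0 at the top value. In the evening libraries of Vel in ex4 the SD was 0.805. The adjusted p therefore does not measure the spread between pools in the groups that moved.

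**Figure D2:**
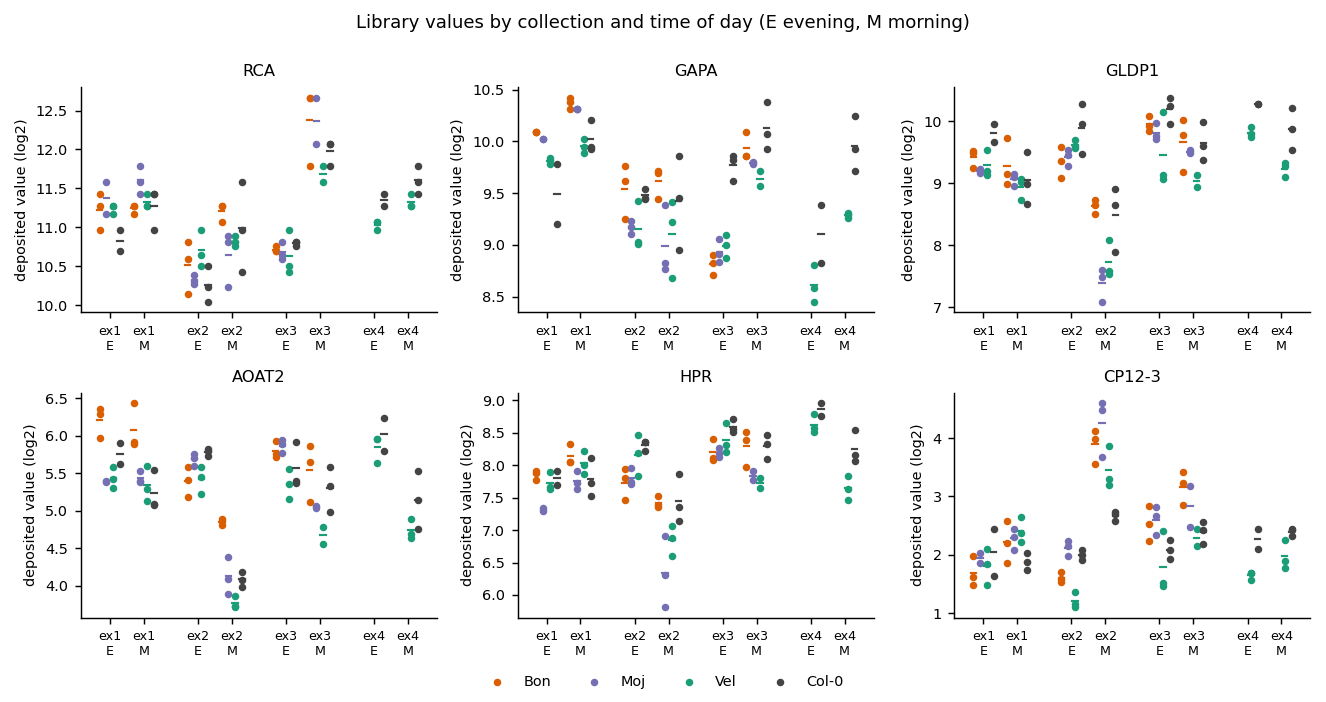
Deposited log2 value of RCA, GAPA, GLDP1, AOAT2, HPR and CP12-3 in each of 79 libraries by collection, with evening left of morning, a colour for each accession and a dash at each group mean. RCA evening points lie below all morning points in ex3, and GLDP1 and AOAT2 evening points lie above all morning points in ex2.

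The change of the evening difference between collections was tested directly. Between ex1 and ex2 it moved upward in 27 genes and downward in 1, against 30.8% and 28.2% of all genes, and between ex2 and ex3 upward in 3 and downward in 30, against 17.9% and 18.4%. Both contrasts share the ex2 libraries. RBCS2B moved by 1.99 ± 0.27 from ex1 to ex2 and by -1.28 ± 0.27 from ex2 to ex3, and CP12-3 by -1.51 ± 0.16 and 1.42 ± 0.16. In the joint F test over ex1 to ex3 the evening difference depended on the collection in 35 of 37 genes, with 71.6% of all genes doing so. The median over the 37 genes was 8.55 in the ex2 evening libraries and 8.09 in the ex2 morning libraries, against a morning median of 8.89 in ex1 and 8.64 in ex3. In Bon, Moj, Vel and Col-0 the group medians were 8.54, 8.10, 8.60 and 8.65 in the ex2 evening, against 8.34, 7.71, 7.96 and 8.08 in the ex2 morning.

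The sequence upstream of genes that moved with the time of day was read from the RefSeq TAIR10.1 genome as the 250 bases before the annotated gene start. It was searched on both strands for the G-box CACGTG, bound by basic leucine zipper and helix-loop-helix factors, the I-box GATAAG of light-regulated promoters, the evening element AAATATCT and the CCA1-binding site AAAAATCT. The G-box was in 7 of 37 windows (18.9%) and in 6.49% of all 27443 windows of that length, and the I-box in 6 of 37 (16.2%) and in 12.3% of all. The CCA1-binding site was in 2 of 37 (5.41%) and in 6.69% of all, and the evening element in 0 of 37 and in 4.79% of all. Windows are shown for RBCS2B and GLDP1, which were higher in the ex2 evening, and for RCA and GGT1, which were lower in the evening of ex2 and ex3. They lie on the minus strand at chr5:15382072-15382321, chr4:15931423-15931672, chr2:16573693-16573942 and chr1:8272022-8272271, are written 5′ to 3′ toward the gene, and capitals mark G-box and I-box matches, none of which overlap.
RBCS2B: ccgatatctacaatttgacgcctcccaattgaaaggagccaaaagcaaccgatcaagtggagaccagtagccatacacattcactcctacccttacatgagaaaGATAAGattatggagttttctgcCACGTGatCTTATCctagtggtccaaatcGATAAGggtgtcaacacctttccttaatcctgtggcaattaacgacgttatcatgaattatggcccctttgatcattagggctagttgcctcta
GLDP1: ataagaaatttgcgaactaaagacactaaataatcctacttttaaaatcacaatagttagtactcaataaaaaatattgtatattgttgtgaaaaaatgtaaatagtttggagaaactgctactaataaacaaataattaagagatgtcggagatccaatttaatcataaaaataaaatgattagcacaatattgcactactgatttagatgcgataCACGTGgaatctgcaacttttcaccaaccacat
RCA: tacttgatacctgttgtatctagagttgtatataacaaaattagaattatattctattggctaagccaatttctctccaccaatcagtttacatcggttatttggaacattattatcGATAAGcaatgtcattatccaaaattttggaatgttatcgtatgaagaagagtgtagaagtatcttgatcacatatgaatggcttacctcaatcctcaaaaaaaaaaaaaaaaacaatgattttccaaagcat
GGT1: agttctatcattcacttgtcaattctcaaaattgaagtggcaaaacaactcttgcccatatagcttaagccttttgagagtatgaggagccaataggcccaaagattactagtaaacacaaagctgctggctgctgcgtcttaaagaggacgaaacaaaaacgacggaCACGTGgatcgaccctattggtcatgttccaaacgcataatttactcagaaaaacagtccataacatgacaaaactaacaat

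RBCS2B holds 1 G-box and 3 I-boxes, RCA 1 I-box, and GLDP1 and GGT1 1 G-box each, so a G-box was present both in genes higher and in a gene lower in the evening. Every window shown holds a match. The windows of TKL1, HPR, GDCH and AGT, which also passed in the ex2 evening, hold none of the motifs searched. A match of letters is a description of the window and not a binding site.

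The second question is how the set changed over successive collections. Averaged over accessions and times of day, it was lower in ex2 than in ex1 almost throughout. On that average every reduction gene and every mitochondrial gene of photorespiration fell, as did all small subunit genes except RBCS1A. In ex3 all photorespiration genes rose again over ex2 on the same average, while the small subunit genes did not pass the test. From ex3 to ex4, 17 of 23 Calvin cycle genes fell, while 4 of 6 peroxisomal genes of photorespiration rose.

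Between ex2 and ex1, 31 genes fell and 5 rose, where 43.7% of all genes fell and 39.5% rose, with a median of -0.67 over the set and -0.026 over all genes. GAPA-2 ran from 6.93 to 9.01 with a median of 7.94 in 24 libraries of ex2, against 8.99 to 10.21 with a median of 9.74 in 22 libraries of ex1, overlapping only at the edge, and differed by -1.71 ± 0.099 (SE, adjusted p = 5.63e-23). SBPASE ran from 7.76 to 9.06 with a median of 8.46 in ex2, against 9.21 to 10.02 with a median of 9.44 in ex1, and HCEF1, the chloroplast fructose bisphosphatase, from 6.60 to 8.51 with a median of 7.57 in ex2, against 8.57 to 9.04 with a median of 8.79 in ex1. Neither phosphatase overlapped between the collections, and they differed by -1.09 ± 0.059 (SE, adjusted p = 2.49e-24) and -1.15 ± 0.064 (SE, adjusted p = 7.64e-24). AT1G32470, an H-protein of the glycine decarboxylase complex, differed by -1.30 ± 0.072 (SE, adjusted p = 9.96e-24).

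RBCS1B ran from 8.17 to 12.07 with a median of 9.34 in ex2 and from 8.92 to 11.79 with a median of 11.12 in ex1, and these ranges overlapped widely, with 1 ex2 evening library higher than any in ex1. It differed by -1.28 ± 0.12 (SE, adjusted p = 2.62e-14), RBCS2B by -1.24 ± 0.14 and RBCS3B by -1.0 ± 0.12. Smaller falls were those of GAPB at -0.91, PGLP1 at -0.87, PRK at -0.74, RCA at -0.58, SHM1 at -0.50, GLDP1 at -0.44, HPR at -0.30 and GOX1 at -0.18. These are averages over accessions and times of day, and 21 of the passing genes kept 1 sign in all 8 pairs of group means. In the evening GLDP1 was higher in ex2 than in ex1 in Moj (9.426 against 9.193), Vel (9.623 against 9.291) and Col-0 (9.899 against 9.805). It was lower in Bon (9.343 against 9.417), and lower in every accession in the morning. Evening medians of HPR (7.94 against 7.74) and GOX1 (9.19 against 9.07) were higher in ex2 too. RBCS1A differed by 0.00, at the top rank of both collections. CP12-1 rose, from 8.64 to 9.26 with a median of 9.05 in ex2 and from 7.71 to 9.14 with a median of 8.55 in ex1, a difference of 0.49 ± 0.055 (SE, adjusted p = 4.87e-12) with the same sign in all 8 pairs of group means. The other rises were CP12-3, TKL2, GGT1 and AGT, between 0.16 and 0.61. That of AGT was 0.06 (adjusted p = 0.289) once each library was centred, which moved the median of all genes by -0.11.

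Between ex3 and ex2, 26 genes rose and 2 fell, where 27.8% of all genes rose and 27% fell, with a median of 0.36 over the set and 0.0053 over all genes. Averaged over accessions and times of day, all 14 photorespiration genes rose, and 12 of 23 Calvin cycle genes. Of the passing genes, 5 kept 1 sign in all 8 pairs of group means. In Bon, AT1G11860 fell in the evening, from 8.245 in ex2 to 7.778 in ex3, and rose in the morning, from 7.939 to 8.084. GOX1 ran from 9.06 to 10.00 with a median of 9.68 in 22 libraries of ex3, against 7.95 to 9.37 with a median of 9.04 in ex2, and HPR from 7.64 to 8.71 with a median of 8.24 in ex3, against 5.81 to 8.46 with a median of 7.62 in ex2. Ranges overlapped in both, and the differences were 0.69 ± 0.057 (SE, adjusted p = 5.05e-15) and 0.68 ± 0.065 (SE, adjusted p = 7.04e-13), with the same sign in all 8 pairs. CP12-2 differed by 0.71 ± 0.092 (SE, adjusted p = 3.51e-09) and SHM1 by 0.64 ± 0.067 (SE, adjusted p = 7.6e-12). GLDP1 rose by 0.84, RCA by 0.72, AGT by 0.51, PGLP1 by 0.45, GAPB by 0.42, PRK by 0.40 and SBPASE by 0.36. The falls were AT1G56190, a phosphoglycerate kinase, at -0.37 ± 0.060 (SE, adjusted p = 7.02e-07) and CP12-3 at -0.19 ± 0.080 (SE, adjusted p = 0.043), and CP12-3 missed the threshold in 21 of 79 fits that left out 1 library each, with an adjusted p of up to 0.137 without Moj ex3 morning replicate 2. The 4 small subunit genes lay between -0.012 and 0.060 and did not pass. This contrast and ex2 minus ex1 share the ex2 libraries.

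Between ex4 and ex3, in Col-0 and Vel with 11 libraries in each collection, 22 genes fell and 6 rose, where 26.7% of all genes fell and 30% rose. The median was -0.36 over the set and 0.024 over all genes. RBCS2B ran from 6.45 to 9.88 with a median of 7.57 in ex4 and from 8.88 to 9.84 with a median of 9.43 in ex3, and differed by -1.64 ± 0.20 (SE, adjusted p = 5.69e-10). GAPA-2 ran from 6.61 to 7.81 with a median of 7.19 in ex4, against 7.83 to 9.02 with a median of 8.45 in ex3, with no overlap and a difference of -1.23 ± 0.14 (SE, adjusted p = 2.07e-10). RBCS3B was at -1.23, AT1G56190 at -1.08 and AT1G32470 at -1.02, all past the threshold. RBCS1A was at -0.82 ± 0.14 (SE, adjusted p = 3.04e-06), and at an adjusted p of 0.150 without the filter. Its SE again rests mostly on groups in which RBCS1A was held at the top value.

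The rises from ex3 to ex4 were TKL2, GOX1, AGT, GLDP2, GGT1 and AOAT2, with 4 of the 6 peroxisomal genes among them, while GOX2 and HPR did not pass. TKL2 ran from 3.46 to 4.98 with a median of 4.09 in ex4, against 1.85 to 3.41 with a median of 2.60 in ex3, with no overlap, and differed by 1.27 ± 0.094 (SE, adjusted p = 3.77e-17). AOAT2 was at 0.21 ± 0.089 (SE, adjusted p = 0.0369) and missed the threshold in 10 of 79 fits that left out 1 library each, with a difference of 0.16 and an adjusted p of 0.16 without Col-0 ex4 evening replicate 1. GOX1 ran from 9.71 to 10.38 with a median of 9.92 in ex4 and from 9.06 to 9.71 with a median of 9.60 in ex3, which met at a single value, and differed by 0.45 ± 0.083 (SE, adjusted p = 6.26e-06). AGT differed by 0.44 ± 0.070 (SE, adjusted p = 3.75e-07). RCA at 0.060, SHM1 at 0.037, HPR at 0.096 and GLDP1 at 0.21 did not pass.

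**Figure D3:**
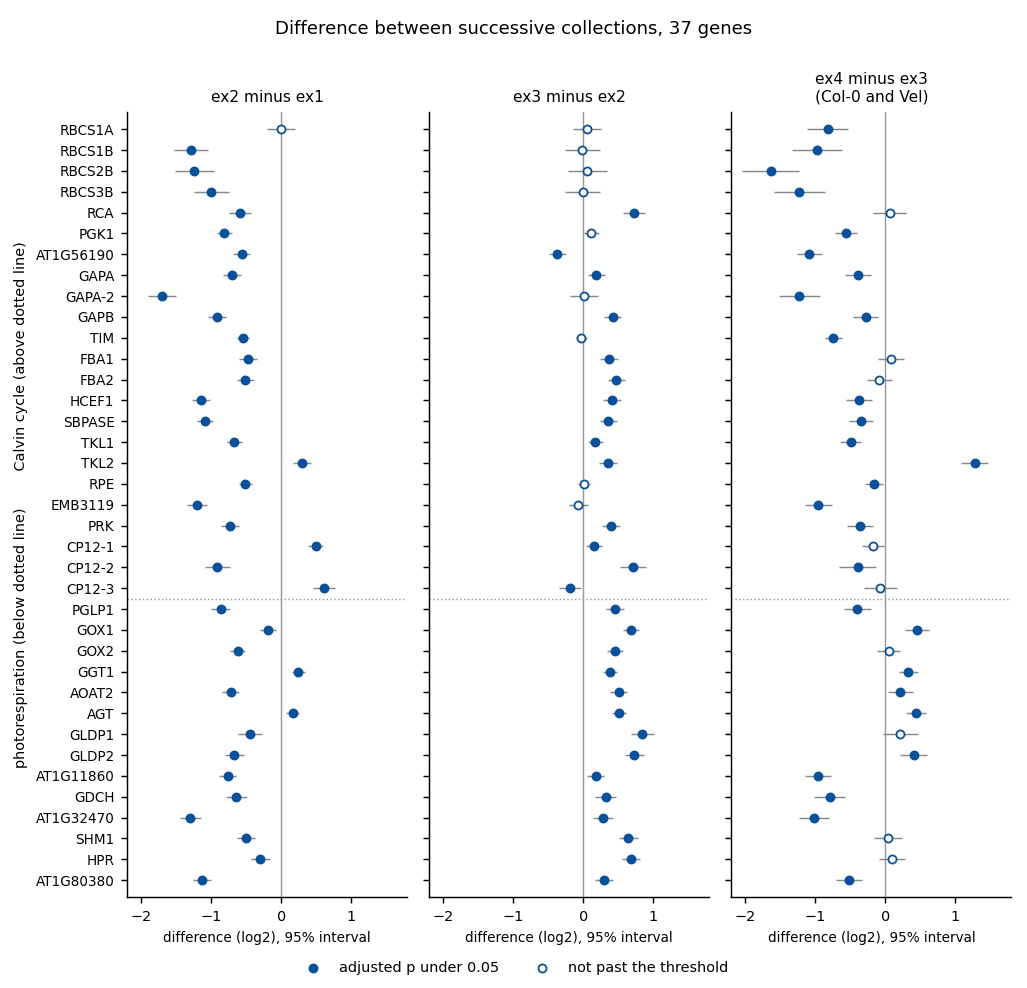
Log2 differences between successive collections of the 37 genes with 95% confidence intervals, filled where the adjusted p passed the threshold. In ex2 minus ex1, 31 genes fell and 5 rose, in ex3 minus ex2 2 fell and 26 rose, and in ex4 minus ex3, in Col-0 and Vel only, 22 fell and 6 rose.

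Markers of leaf condition moved with the collections, and their part in these results was not tested. All 5 senescing leaf markers, SAG12, SAG13, SGR1, NYC1 and ORE1, rose from ex1 to ex2 (median 2.43) and from ex3 to ex4 (median 0.92), and 4 rose and 1 fell from ex2 to ex3. Their summed back-transformed level per library ran from 32.7 to 130 in ex1, from 237 to 1644 in ex2, from 152 to 2342 in ex3 and from 340 to 2796 in ex4. SAG12, the cysteine protease most used as a senescence marker, had a median of 0 in ex1, 5.86 in ex2, 7.15 in ex3 and 8.80 in ex4. Of 5 green leaf markers (LHCB1.1, LHCA1, PSAD1, PSBO1 and CA1), 4 fell in ex2, 4 in ex3 and 5 in ex4, each against the collection before. Their sums ran from 7267 to 11132 in ex1, from 3121 to 9830 in ex2, from 2629 to 8586 in ex3 and from 1635 to 3240 in ex4. Flower organ markers (SEP2, SEP3, AP3, PI, AG and A9) summed to 0.0 to 1.2, 0.0 to 16.8, 0.3 to 30.0 and 0.0 to 5.5 in ex1 to ex4, with 5 of 6 higher in ex2 and 6 lower in ex4, and A9 was at 0 in 62 of 79 libraries. The 6 root markers summed to 18.9 to 55.4 in ex1, 12.5 to 40.4 in ex2, 9.5 to 23.1 in ex3 and 8.1 to 33.4 in ex4. Of these, EXPA7 was at 0 in 72 libraries, COBL9 in 62, MYB36 in 59 and CASP1 in 57, and none of the 4 was tested. PYK10 and SCR were above 0 in every library and both fell in ex2 and again in ex3, PYK10 with medians of 4.21, 2.93, 2.07 and 1.45 and SCR with medians of 4.01, 3.63, 3.38 and 3.30 in ex1 to ex4. The sums and the medians by collection given here pool 4 accessions in ex1 to ex3 but only Col-0 and Vel in ex4. Their ex4 values are therefore of an unlike set of samples, whereas the tested differences from ex3 to ex4 use Col-0 and Vel in both. From ex3 to ex4 SCR fell, at -0.27, and PYK10 at 0.14 did not pass.

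Genes outside the set that serve these pathways were followed in the same way, from lists by function. Over all genes 33.7% were higher and 33.1% lower in the ex2 evening, 43.7% fell and 39.5% rose from ex1 to ex2, 27.8% rose and 27% fell from ex2 to ex3, and 26.7% fell from ex3 to ex4. All 11 Rubisco biogenesis genes (chaperonins, RBCX, RAF and BSD2 assembly factors, and the phosphatase CBBY) fell from ex1 to ex2, with a median of -1.10, and all 11 fell from ex3 to ex4. In the ex2 evening 9 of 11 were higher and 1 lower, led by RBCX1 at 3.14 (adjusted p = 4.26e-32). Of 7 thioredoxin and redox genes 5 were higher and 2 lower in the ex2 evening, and 5 fell and 1 rose in ex2. Of 20 further photorespiration and nitrogen recycling genes 13 were higher and 3 lower in the ex2 evening, and 11 rose and 1 fell in ex3. The 4 transcription factors GLK1, GLK2, GNC and HY5, which act on photosynthesis genes, were all lower in the evening of ex2, at -0.83, -1.60, -1.15 and -0.96. They were lower in the evening of ex3 too, and in ex1 2 were higher and 2 lower. Of the other gene copies FBA3, PGK3 and cFBP2, 2 were higher in the ex2 evening.

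The third question is whether copies of 1 enzyme moved together. Balance is the log2 difference between 2 copies in a library, and its change was tested by permutation of the libraries within accession (within accession and time of day for collections), exact where the number of arrangements allowed and otherwise with 100000 resamples, two-sided and adjusted over 84 tests, of which 47 passed. The evening test in ex4 had only 200 arrangements, so its p could not fall below 0.005, here adjusted to 0.0108. Adjusted p-values of ex4 are therefore not comparable with those of other collections. GLDP1 gained on GLDP2 in the evening of all 4 collections, by 0.29 in ex1 (adjusted p = 9.13e-05), 1.09 in ex2, 0.90 in ex3 and 1.11 in ex4 (adjusted p = 0.0108). GGT1 lost to AOAT2 in each evening, with changes of -0.36, -1.67, -1.21 and -1.24 in ex1 to ex4. GOX1 gained on GOX2 by 0.12 to 0.49 in the evenings, but GOX1 and GOX2 lie next to each other on chromosome 3 and share 92.4% of their coding sequence, so reads may be split between them.

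RBCS1A changed against RBCS2B by 0.64 in the ex1 evening, -1.35 in ex2 and -2.42 in ex4, and against RBCS3B by 0.47, -0.95 and -2.01, all past the threshold, while neither passed in ex3. Every evening library of ex1 and ex2 held RBCS1A at the top value. The changes there largely restate those of the other copy with the sign turned, which for RBCS2B were -0.48 in ex1 and 1.51 in ex2. In ex4 the changes against RBCS2B and RBCS3B both had an adjusted p of 0.0108, the lowest the exact permutation test gave there with 200 arrangements. They include the loss of rank of RBCS1A.

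The balance of several copies also moved between collections. GAPA over GAPA-2 ran from 0.66 to 1.95 with a median of 1.39 in ex2, against -0.02 to 0.93 with a median of 0.29 in ex1, a gain of 1.01. CP12-1 over CP12-2 ran from 0.70 to 3.62 with a median of 1.53 in ex2, against 0.04 to 0.62 with a median of 0.32 in ex1, with no overlap and a gain of 1.40. TKL1 lost to TKL2, with changes of -0.97 in ex2 against ex1 and -1.77 in ex4 against ex3, but stayed above TKL2 in all 79 libraries. RBCS1A was above the other 3 small subunit genes in all 79 libraries as well, and gained 1.28 on RBCS1B and 1.24 on RBCS2B in ex2 against ex1. These gains are the falls of those copies, as RBCS1A itself did not differ between ex1 and ex2. RBCS1A was held near the top value in all collections until the ex4 evening. Its share of the summed back-transformed small subunit level had a median of 64.2% in ex1, 83.2% in ex2, 83.0% in ex3 and 87.3% in ex4, where only Col-0 and Vel were sampled. That share is set on one side by the fixed value of the top rank. RBCS1B, RBCS2B and RBCS3B stand in a row on the minus strand of chromosome 5, from 15376988 to 15385320 in TAIR10.1, and share 96.7% to 97.3% of their coding sequence, so reads may be split between them and values of single genes are uncertain. RBCS1A shares 90.6% to 92.0% with each. PGLP1 has a second annotated copy with an identical coding sequence, so its values carry the same doubt.

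**Figure D4:**
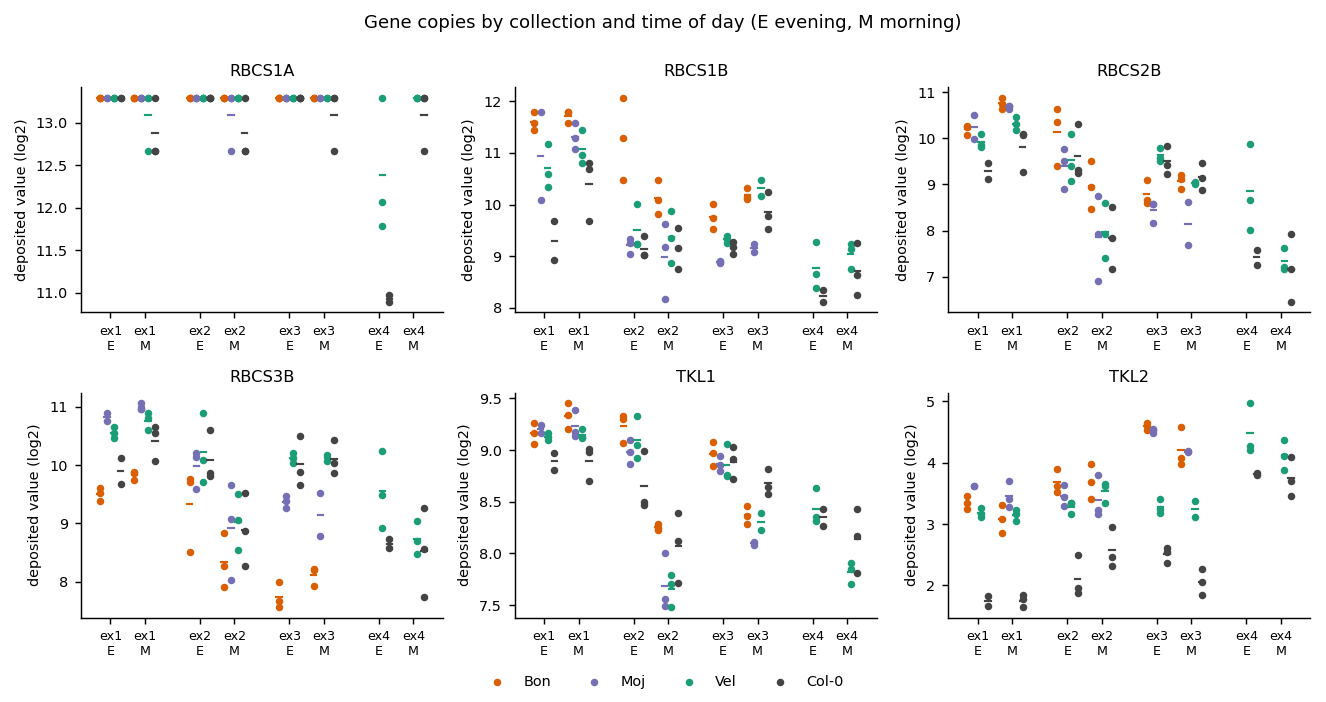
Deposited log2 values of the small subunit genes RBCS1A, RBCS1B, RBCS2B and RBCS3B and the transketolase genes TKL1 and TKL2 in 79 libraries by collection, with evening left of morning, a colour for each accession and a dash at each group mean. RBCS1A stays near the top value until the ex4 evening, and TKL2 runs highest in ex4, from 3.46 to 4.98.

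The fourth question is how the natural accessions differed from Col-0. TKL2 was higher in all 3, in each collection and at both times. Moj had the most genes below Col-0, and in Bon RBCS1B was higher and RBCS3B lower. The 3 comparisons share the Col-0 libraries. Over ex1 to ex3, 11 genes were higher and 9 lower in Bon (all genes 32.9% and 33.6%), 3 and 23 in Moj (all genes 33% and 35.7%), and 5 and 15 in Vel (all genes 32.2% and 32.3%). Median differences over the set were 0.0095 in Bon, -0.24 in Moj and -0.071 in Vel, against 0.00, -0.0085 and 0.00 over all genes. In both Moj and Vel, 10 of 14 photorespiration genes were lower than in Col-0 and 0 higher.

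TKL2 ran from 2.86 to 4.65 with a median of 3.65 in 18 Bon libraries, from 3.17 to 4.56 with a median of 3.63 in 16 Moj libraries and from 3.06 to 3.65 with a median of 3.25 in 17 Vel libraries, against 1.64 to 2.96 with a median of 2.06 in 17 Col-0 libraries. Moj and Vel did not overlap Col-0, and the lowest Bon library was just below the highest of Col-0. The differences were 1.64 ± 0.074 (SE, adjusted p = 1.05e-27) in Bon, 1.65 ± 0.076 (SE, adjusted p = 6.11e-27) in Moj and 1.15 ± 0.075 (SE, adjusted p = 3.1e-20) in Vel, with the same sign in 6 of 6 pairs of group means each.

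In Bon, RBCS1B ran from 9.54 to 12.07 with a median of 10.46, against 8.75 to 10.81 with a median of 9.40 in Col-0, and RBCS3B from 7.56 to 9.88 with a median of 8.68 in Bon, against 8.26 to 10.65 with a median of 9.88 in Col-0. RBCS1B differed by 1.28 ± 0.14 (SE, adjusted p = 7.74e-12) and RBCS3B by -1.09 ± 0.14 (SE, adjusted p = 9.57e-10), so the values of closely related copies stood apart in opposite directions, with overlapping ranges. These copies share 96.7% of their coding sequence, and Bon reads were set against the Col-0 genome. Reads of 1 copy may thus be counted for the other, and their part in these differences was not tested. In Moj, AT1G56190 ran from 4.08 to 6.33 with a median of 5.54, against 5.48 to 7.01 with a median of 6.38 in Col-0, a difference of -1.08 ± 0.072 (SE, adjusted p = 8.69e-20). AT1G11860, the T-protein of glycine decarboxylase, differed by -0.85 ± 0.075 (SE, adjusted p = 3.67e-15) and PGLP1 by -0.83 ± 0.077 (SE, adjusted p = 2.98e-14), and HPR by -0.50. Moj groups in ex3 mornings lack the left-out library. In Vel, RBCS1B was higher by 0.55 ± 0.14 (SE, adjusted p = 0.000726) and AT1G56190 by 0.54 ± 0.070 (SE, adjusted p = 1.4e-09), while GLDP1 was lower, at -0.50 ± 0.098 (SE, adjusted p = 1.39e-05), as were GLDP2 at -0.36 ± 0.079 (SE, adjusted p = 6.81e-05) and TIM, the triose phosphate isomerase, at -0.23 ± 0.047 (SE, adjusted p = 3e-05). RCA did not pass in any accession, at 0.19 in Bon, 0.15 in Moj and 0.047 in Vel. Senescing leaf markers were higher than Col-0 in 1 of 5 in Bon, 3 in Moj and 5 in Vel, where 32.9%, 33% and 32.2% of all genes were. Green leaf markers were lower in 4 of 5 in Moj, where 35.7% of all genes were. Counts in the other direction, and green leaf markers in Bon and Vel, are not given here. The part of these markers in the differences was not tested.

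**Figure D5:**
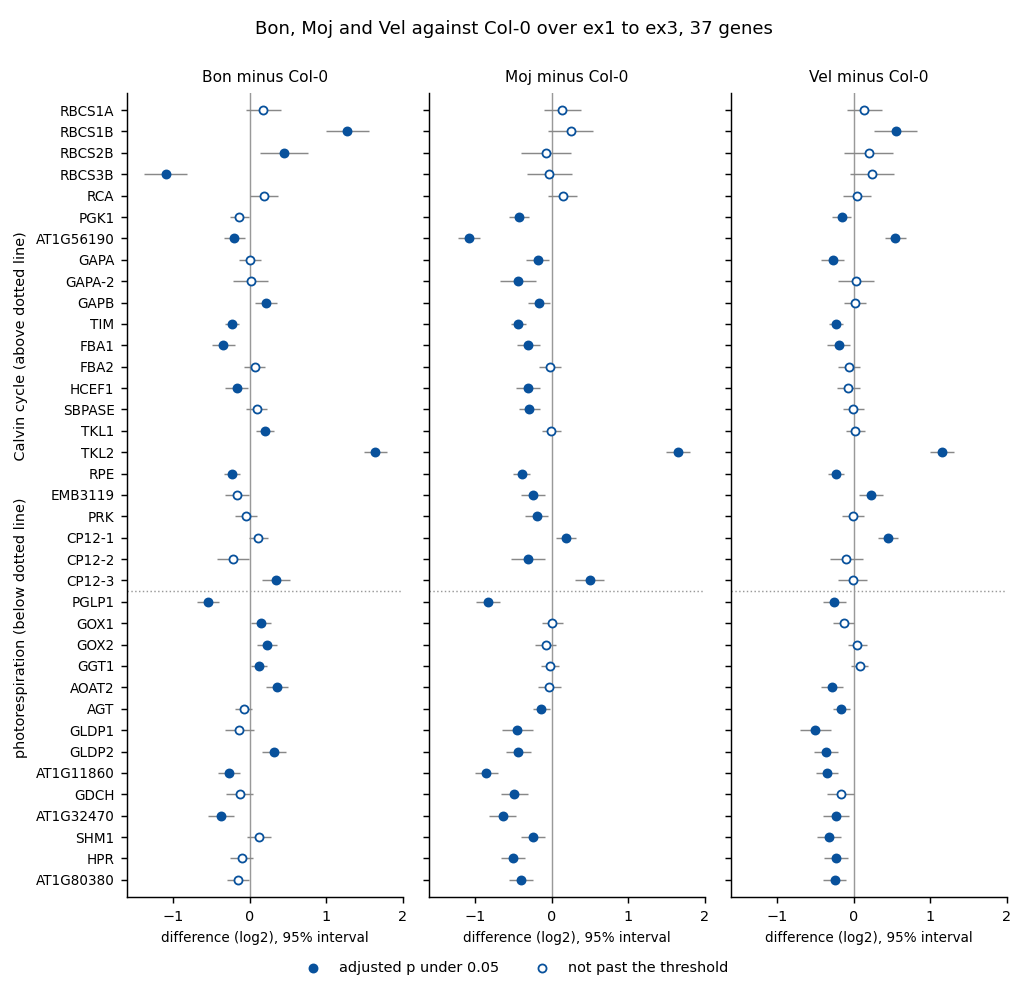
Log2 differences of Bon, Moj and Vel from Col-0 over ex1 to ex3 for the 37 genes, with 95% confidence intervals, filled where the adjusted p passed the threshold. TKL2 is the highest point in each panel, and 23 filled points lie left of zero in Moj, against 9 in Bon and 15 in Vel.

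Comparisons within single collections and accessions were added after the data were seen. In ex1 the natural accessions were above Col-0 in more genes than below, 10 and 2 in Bon, 9 and 2 in Moj and 7 and 1 in Vel. All genes stood at 22.5% and 21.4%, 22.4% and 21.5%, and 20.8% and 20.1%. The counts above Col-0 were thus near the share of all genes, and only the counts below Col-0 were under it. In ex3 the counts were 5 higher and 17 lower in Bon, 4 and 23 in Moj and 3 and 13 in Vel, with all genes at 29% and 34.4%, 29% and 34.2%, and 23.6% and 27%.

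From ex2 to ex3, 26 of 37 genes rose and 0 fell in Col-0, where 10.8% of all genes rose and 8.69% fell. In Vel 13 rose and 0 fell (all genes 4.01% and 2.88%), in Moj 19 and 2 (all genes 18.7% and 18.3%) and in Bon 11 and 7 (all genes 24.7% and 24.7%). The change from ex2 to ex3 was smaller or more negative in Bon than in Col-0 for 16 genes and larger for 1, where 14.8% and 11.6% of all genes did so, with RBCS3B at -1.48 ± 0.34. From ex1 to ex2 the same test of Moj against Col-0 found 20 lower and 1 higher (all genes 19.9% and 16.7%), with RBCS1B at -1.32 ± 0.36 and CP12-2 at -1.31 ± 0.27. Over ex1 to ex3 the change between collections depended on accession in 32 of 37 genes by the F test, as it did in 72.9% of all genes, and the evening difference did in 12, as in 28.1% of all genes.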

How the data were processed

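PolyA RNA of rosette leaves was sequenced in 80 libraries, grouped as labelled by accession, collection and time of day into 28 groups. The deposited values are log2 values for 33602 genes, which the authors made from reads with HISAT2, StringTie and FastQC on TAIR10, per the submitters' processing notes, which give no tool versions. The log base, an offset of 1, scaling by length and a quantile normalization are read from the values, not stated. All columns matched a sample, and 0 matched none. Values were used as deposited, although the plan had foreseen taking logs first, and log2 differences of low genes understate their fold changes. The table gives no counts, so no depth, interval or floor that needs them is given. Of the identifiers, 32835 matched the RefSeq TAIR10.1 annotation, which gave names, positions, coding sequences and upstream windows.

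The 37 genes and the lists beside them were chosen with earlier results of these data known. The 20871 genes that reached 1 in 3 or more libraries were fitted in R 4.3.3 with limma 3.58.1 (and the package data.table, version 1.17.8), with a mean per group, a trended prior and 51 residual degrees of freedom over 79 libraries. Contrasts weighted groups equally. A result passed at a Benjamini-Hochberg adjusted p under 0.05 over all tested genes, two-sided. Copies were compared by permutation, with a seed of 1. Python 3.11.15, pandas 2.3.3, numpy 2.4.6, scipy 1.17.1, matplotlib 3.10.9 and biopython 1.88 were used, and the limma step was tested on simulated data. In each comparison the text names up to 3 of the largest rises and 3 of the largest falls with 1 sign in every pair of group means, and RBCS1A, RCA, GAPB, PRK, SBPASE, PGLP1, GOX1, GLDP1, SHM1 and HPR where space allowed. Other genes named with values were chosen after their values were seen. Alternatives were the left-out library kept, an offset of 0.1, no filter, a minimum value of 3, centring on 8 reference genes, no trend, a replicate block, a fit of only the groups compared, and leaving out each library.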

Additional observations from a re-analysis of the deposited data

Results flagged for a closer look

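The results here are those in which a contrast differed between collections or accessions by a test of the difference itself. The comparisons that share libraries, ex2 in the first pair and Col-0 in the rest, are not independent of one another.

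By the F tests over ex1 to ex3, the evening difference depended on collection in 35 of the 37 genes (71.6% of all genes) and on accession in 12 (28.1% of all genes), and the change between collections depended on accession in 32 (72.9% of all genes). None of these shares was tested against that of all genes. From ex1 to ex2 the evening difference moved upward in 27 genes and downward in 1, against 30.8% and 28.2% of all genes. RBCS2B moved by 1.99 (adjusted p = 1.09e-08), RBCS3B by 1.42, CP12-2 by 1.33 and CP12-3 by -1.51 (adjusted p = 6.4e-12). From ex2 to ex3 it moved upward in 3 genes and downward in 30, against 17.9% and 18.4% of all genes. The upward ones were CP12-3 at 1.42, CP12-1 at 0.52 and TKL2 at 0.47, and the furthest downward were RBCS2B at -1.28, GAPA-2 at -1.26 and RBCS3B at -1.18.

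Contrasts of single accessions were added after the data were seen. Between ex2 and ex1, Moj changed less upward or more downward than Col-0 in 20 genes and the other way in 1 (all genes 19.9% and 16.7%), with RBCS1B at -1.32 and CP12-2 at -1.31. Between ex3 and ex2, Bon did so in 16 genes and the other way in 1 (all genes 14.8% and 11.6%), with RBCS3B at -1.48 and EMB3119, the ribose phosphate isomerase, at -1.27. Between ex4 and ex3, Vel differed from Col-0 in 2 of 37 genes, where 14.6% of all genes did, AT1G56190 at 0.99 and TIM at 0.54. The evening difference of GLDP2 over ex1 to ex3 was -0.79 in Bon relative to Col-0. That of CP12-2 was 0.75 in Moj and 0.86 in Vel relative to Col-0, and that of the aldolase FBA1 was 0.67 in Vel.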

How the results depend on the processing

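Under 8 alternative settings, 481 differences of the 37 genes gave 3848 values. Of these, 3775 kept their side of the threshold, 41 no longer passed and 32 newly passed. Of the differences that passed in the main fit, 0 changed sign. Direction was not checked for differences that did not pass there. Counts of genes stayed within 1.5 times except for ex3 minus ex2, where 1 gene fell rather than 2 with Moj ex3 morning replicate 1 kept, with an offset of 0.1, without the filter and with only the groups compared, and for the change of the evening difference from ex1 to ex2, where 2 rather than 1 moved downward with an offset of 0.1. These last counts ran from 1 to 2 each over 79 fits that left out 1 library, and the count higher in the ex1 evening from 0 to 2, while 351 single calls changed over those fits. The cause was not tested. Copy balances were recomputed with the offset of 0.1 and with the left-out library kept, and there kept all their calls. Replicate numbers are not stated to pair samples, and same-numbered evening and morning libraries had a median correlation of deviations of 0.0541 (12 of 37 over 0.1), so the replicate block is only an alternative: it gave 12 rather than 9 genes lower in Bon, changed 4 of 481 calls and reversed none. Depth is unknown, ranks limit RBCS1A and set the step size of RCA and other genes near the top, and near-identical copies limit the small subunit genes and PGLP1.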
